A study of Mus musculus with 18 samples.

Results

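Hearts of mice that had myocardial ischemia-reperfusion and decursin were compared with hearts of untreated mice after the same injury, across all genes measured. Its libraries were taken by the treatment label, 12 of the 18 of the study, 6 labelled IR+Decursin and 6 labelled IR. All animals were C57BL/6 mice labelled wild type and male, weighing about 20 g, and hearts were collected on day 7 after surgery, 1 library per animal. The IR group had ischemia-reperfusion only, and the IR+Decursin group had ischemia-reperfusion and decursin. The 6 sham-operated animals (SHAM) served as a level for reference and were part of the fit, where all groups shared 1 estimate of the spread. The labels state no dose, route or timing of decursin. Each of the 3 batches named in the labels holds 1 group, so batch and treatment cannot be told apart.

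Decursin is a coumarin-type compound first known from the root of Angelica gigas. When a blocked coronary artery is reopened, heart muscle cells die, macrophages and other leukocytes clear the debris, and fibroblasts lay down collagen in their place. The adult heart muscle draws nearly all of its energy from mitochondria, whose respiratory chain is built from proteins of both the nuclear and the mitochondrial genome. Ferroptosis, a form of cell death driven by iron and oxidised membrane lipids, is one of the death pathways studied in this injury, and heme and iron genes bear on it.

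The 12 libraries held 28877113 to 34974692 counts each, and 15088 of 25731 gene symbols had enough counts to be tested. Defining heart muscle genes were abundant in all of them: Myh6, the main myosin of the adult mouse ventricle, stood at 8548 to 14048 CPM in IR and 10754 to 19673 CPM in IR+Decursin. CPM is the count of a gene divided by the library total in M counts, after scaling factors for library make-up (TMM). None of the lung epithelium markers passed the filter. Mitochondrially encoded genes took 24.4 ± 3.06% of counts in IR and 24.6 ± 2.21% in IR+Decursin (SD, n = 6 each; exact permutation test over 924 splits, two-sided, p = 0.892, adjusted over 2 shares p = 0.892). The difference of 0.198 percentage points turned to -0.435 without 3 libraries named next. IR 3, IR 4 and IR+Decursin 2 carried 14072 to 14232 counts of Xist, the RNA of the inactive X chromosome, and 47400 to 281790 counts of the estrogen receptor gene Esr1, against at most 8 and 55 in the other 15 libraries. They had 0 counts of the Y-linked gene Ddx3y, which goes against their male label. The labels give no reason for the Esr1 counts, and whether these fit the wild type label was not tested. Values without these 3 libraries are stated below where they are given. The gene model Gm26917 took 7.54% of counts in IR+Decursin 6 and 0.915% in IR 1. On the first principal component of all 18 libraries, SHAM lay at -42.7 to -35.9 and IR at 17.3 to 46.7, while IR+Decursin reached from -33.5 in library 6 and -12.3 in library 5 up to 38.6 in library 1.

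No single gene passed the test between treated and untreated hearts. Genes of mitochondria and heart muscle stood mostly higher with decursin, and genes of recruited macrophages, inflammation and the cytosolic ribosome stood mostly lower. With edgeR's quasi-likelihood test 0 of 15088 genes (0% higher, 0% lower) passed a false discovery rate of 0.05, and the smallest adjusted p was 0.0883, shared by 55 genes. Fitted on the 12 compared libraries alone, without SHAM, 0 of 14786 genes passed and the smallest adjusted p was 0.254. In that fit 2140 genes had an unadjusted p under 0.05, against 2712 in the full fit. At an unadjusted p under 0.05 there were 1524 higher genes (10.1% of those tested) and 1188 lower genes (7.87%), the background for the counts of members given below. The median log2 difference over all tested genes was -0.02. With scaling to total counts alone it was -0.10 and the split turned to 714 higher and 1595 lower, so directions below are read against that shift. DESeq2 called 470 genes, 374 higher (3.32% of the 11268 genes given an adjusted p) and 96 lower (0.852%).

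The count of calls turned on which libraries were in the fit. Without IR+Decursin 1, the treated library farthest toward IR on the first principal component, 976 genes passed, 696 higher (4.58%) and 280 lower (1.84%), and these held 171 of the 172 genes under a false discovery rate of 0.1 in the full fit. Without IR+Decursin 4, 2 genes passed, Pdss1 (0.65, adjusted p = 0.0310) and Noct (0.68, adjusted p = 0.0484). Without the 3 libraries with Xist 0 genes passed, 1293 had an unadjusted p under 0.05, and the smallest adjusted p was 0.354. Leaving out those and IR+Decursin 1 together, a choice made after the data were seen, left 1 call, the photoreceptor membrane gene Rom1 (1.08, adjusted p = 0.0298). In 41 genes every IR+Decursin library lay above every IR library (0.272% of those tested), and in 37 every one lay below (0.245%).

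The 10 higher genes with the smallest p are described first. In what follows, a difference is the log2 fold change of IR+Decursin over IR ± its standard error. None of the differences passed the full edgeR fit. Of these 10 genes 10 passed with DESeq2, 10 without IR+Decursin 1, 2 without IR+Decursin 4, and 0 in each of the other fits tried. The genes were picked by p in the same libraries, so these passes are no separate support.

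Ung encodes the uracil glycosylase that removes uracil from nuclear and mitochondrial DNA. It stood at 7.54 to 11.3 CPM in IR (median 9.44) and 11.9 to 16.8 CPM in IR+Decursin (median 14.3), with no overlap, and at 18.4 to 26.1 CPM in SHAM. The difference was 0.64 ± 0.12 (adjusted p = 0.0883). Without the Xist libraries it was 0.60.

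Pdss1 makes the side chain of ubiquinone, the electron carrier of the respiratory chain. It stood at 7.58 to 11.2 CPM in IR (median 9.82) and 10.8 to 16.3 CPM in IR+Decursin (median 14.7), a difference of 0.58 ± 0.11 (adjusted p = 0.0883). All treated libraries except IR+Decursin 4 lay above every IR library.

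Kcnd2, a pore subunit of the transient outward potassium current that repolarises the ventricle, stood at 8.58 to 11.9 CPM in IR (median 9.96) and 11.4 to 20.8 CPM in IR+Decursin (median 15.5). Only IR+Decursin 1 fell within the IR range, and the difference was 0.67 ± 0.13 (adjusted p = 0.0883). The mitochondrial ribosome gene Mrpl37 (0.45 ± 0.09), the oxaloacetate decarboxylase gene Fahd1 (0.40 ± 0.08) and the glutathione-degrading enzyme gene Chac2 (0.58 ± 0.12) showed the same picture, with 5 of 6 treated libraries above all IR libraries in each. Noct, a rhythmically expressed phosphatase of NADPH, was 0.59 ± 0.12 higher with 4 of 6 above.

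Rtn4ip1 and Qrsl1, both among the 10, lie head to head on chromosome 10. Rtn4ip1 encodes a mitochondrial oxidoreductase needed for ubiquinone synthesis and complex I assembly, and Qrsl1 a subunit of the enzyme that completes glutaminyl-tRNA in mitochondria. In RefSeq on build GRCm38.p6, which is older than the build of the counts, Qrsl1 runs on the minus strand from 43874188 to 43901742 and Rtn4ip1 on the plus strand from 43901807 to 43947863. The 64 bases between their starts, at chr10:43901743-43901806, are printed because both genes of the pair were among the 10. They are given on the plus strand, with capitals marking ATTGG, the CCAAT motif read on the other strand.

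Qrsl1-Rtn4ip1: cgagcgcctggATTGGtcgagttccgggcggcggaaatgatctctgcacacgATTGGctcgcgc

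The stretch holds 2 matches of CCAAT on either strand. Of 32851 stretches of the same length directly upstream of RefSeq starts, 11.8% hold at least 1 and 1.28% at least 2. Rtn4ip1 stood at 32.9 to 45.8 CPM in IR (median 38.7) and 45.3 to 69.3 CPM in IR+Decursin (median 55.7), with only IR+Decursin 1 inside the IR range (0.53 ± 0.10, adjusted p = 0.0883). Qrsl1 stood at 15.2 to 24.5 CPM in IR (median 19.9) and 25.4 to 33.7 CPM in IR+Decursin (median 28.5), with no overlap (0.50 ± 0.10, adjusted p = 0.0883). The counting is not stated to use strand, but the annotated genes do not overlap. Without the Xist libraries the differences were 0.46 and 0.42.

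**Figure D1:**
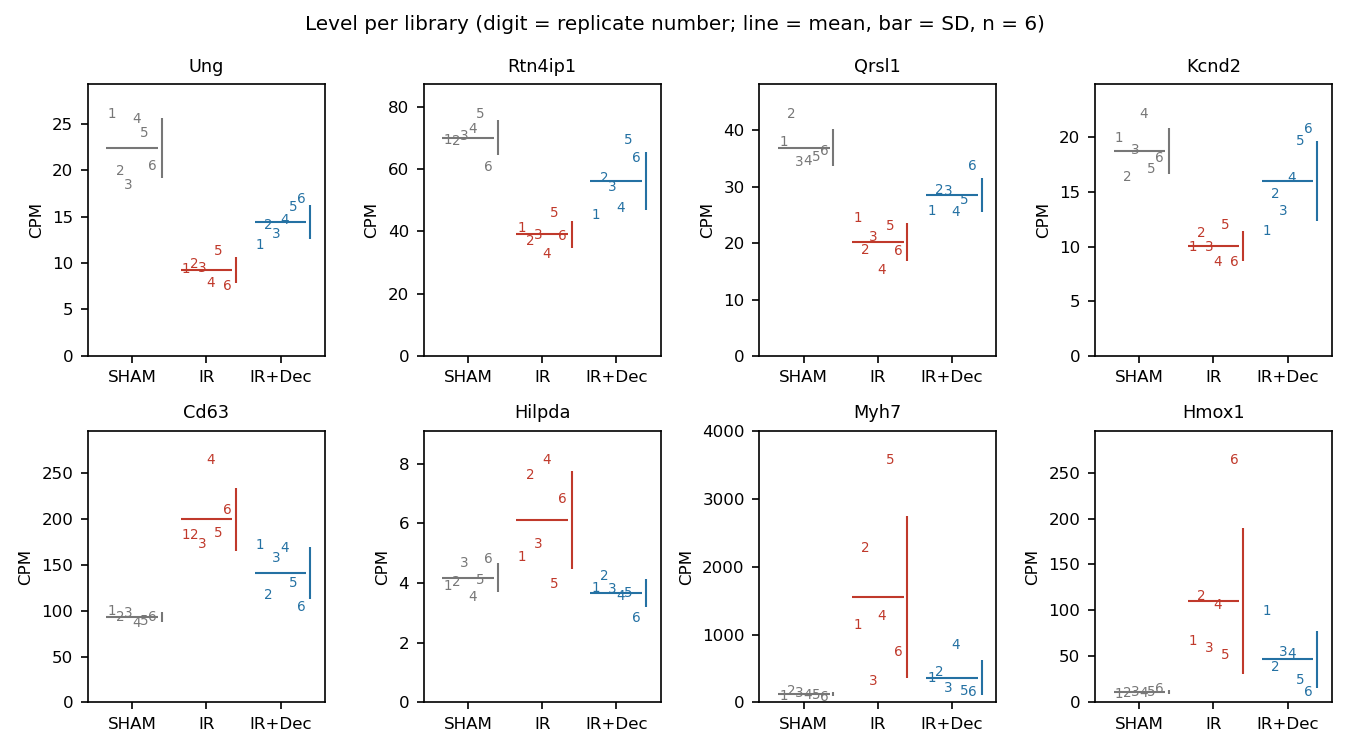
Level in CPM (vertical axis, from 0) of 8 genes in each library of the SHAM, IR and IR+Dec (IR+Decursin) groups. Digits are replicate numbers, horizontal lines means and vertical bars SD (n = 6). Ung and Qrsl1 do not overlap between IR and IR+Decursin, Cd63 lies wholly lower with decursin, and IR 3 is the lowest IR library for Myh7.

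Genes that build and run mitochondria stood higher as families. The families by gene symbol in this paragraph were formed after the 10 genes had been seen and are described only. Of 78 tested mitochondrial ribosomal protein genes 75 lay above 0, with a median difference of 0.23 against -0.02 for all genes, 49 higher at an unadjusted p under 0.05 and 1 lower (Mrpl52, -0.28 ± 0.10), against 10.1% and 7.87% of all genes. The median was 0.14 with total-count scaling and 0.21 without the Xist libraries. It was 0.29 without IR+Decursin 1 and 0.18 without IR+Decursin 6. Mrpl12, which also binds the mitochondrial RNA polymerase, was highest of them at 0.49 ± 0.11, and Mrps30 stood at 19.7 to 25.2 CPM in IR and 26.7 to 36.9 CPM in IR+Decursin with no overlap. Of 13 ubiquinone synthesis genes 12 lay above 0, 10 at an unadjusted p under 0.05 against 10.1% of all genes (median 0.29), among them Coq10a (0.58 ± 0.13), Coq9 (0.55 ± 0.14) and Coq5 (0.51 ± 0.11). All 8 tested complex I assembly factor genes lay above 0, 5 of them at an unadjusted p under 0.05 (median 0.27).

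From the 41 wholly higher genes (0.272% of those tested), the following were picked after their values were seen. Tfam, which packages and transcribes mitochondrial DNA, stood at 28.3 to 36.6 CPM in IR (median 31.4) and 37.2 to 44.2 CPM in IR+Decursin (median 40.5), a difference of 0.36 ± 0.08 (adjusted p = 0.0883). The transcription elongation factor gene Tefm (0.34 ± 0.08), the RNA granule gene Grsf1 (0.32 ± 0.08) and the mitochondrial asparaginyl-tRNA synthetase gene Nars2 (0.40 ± 0.09) also lay wholly above. So did the ketone body enzyme gene Oxct1 (673 to 1019 CPM in IR and 1038 to 1551 CPM in IR+Decursin, 0.47 ± 0.12), the matrix adenylate kinase gene Ak4 (0.35 ± 0.08) and Mcur1, a regulator of the mitochondrial calcium uniporter (0.36 ± 0.08).

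The complex I assembly factor genes Ndufaf1 and Ndufaf4 belonged to the same set. Ndufaf1 stood at 25.6 to 33.2 CPM in IR and 35.4 to 59.6 CPM in IR+Decursin (0.49 ± 0.11), and Ndufaf4 at 43.5 to 66.8 CPM and 67.1 to 77.4 CPM (0.33 ± 0.09). NRF1 is a transcription factor known for nuclear genes of the respiratory chain, and its palindromic motif, GCGCA followed directly by its reverse complement TGCGC, was searched on both strands in RefSeq windows that run from 250 bases before to 50 after each start. Ndufaf4 was 1 gene with a match among the 33 wholly higher genes that had a window. The 250 bases before its start, on the plus strand at chr4:24897833-24898082 of GRCm38.p6, are shown for that reason, with the match in capitals.

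Ndufaf4: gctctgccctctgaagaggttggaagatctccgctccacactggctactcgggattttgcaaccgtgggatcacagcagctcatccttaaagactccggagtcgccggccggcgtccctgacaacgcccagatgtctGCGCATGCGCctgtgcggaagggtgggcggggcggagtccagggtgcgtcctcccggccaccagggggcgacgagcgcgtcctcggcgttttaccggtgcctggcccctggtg

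The motif was in 0.971% of all 32851 windows and 1.73% of the windows of tested genes. It was in 1.95% of the windows of genes higher at an unadjusted p under 0.05 and 1.57% of those lower, so its share differed little by direction. Among the mitochondrial ribosomal protein genes 3 of 75 windows held it (4.0%), and of the 9 windows of the 10 higher genes 0 did.

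The respiratory chain itself showed an uneven picture between the nuclear and the mitochondrial genome. All 46 tested nuclear genes of oxidative phosphorylation lay above 0 (median 0.23, 0.18 without the Xist libraries and 0.13 with total-count scaling), 22 of them at an unadjusted p under 0.05 against 10.1% of all genes. Uqcrc1, a core subunit of complex III, stood at 372 to 524 CPM in IR (median 433) and 432 to 889 CPM in IR+Decursin (median 669), a difference of 0.56 ± 0.14 (adjusted p = 0.0930). Its partner Cyc1, cytochrome c1, differed by 0.49 ± 0.13 (adjusted p = 0.0991). In both genes 4 of 6 treated libraries lay above all of IR, and IR+Decursin 6 was the highest. Of the 13 genes encoded in mitochondria 0 had an unadjusted p under 0.05, and their median was 0.05, or -0.06 with total-count scaling and 0.02 without the Xist libraries. ND1 of complex I was 0.27 ± 0.14, or 0.16 without IR+Decursin 6, and ND4L was -0.85 ± 0.44, or -0.42 without IR 2.

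Genes that feed the chain resembled its nuclear subunits. Of 25 citric acid cycle and pyruvate dehydrogenase genes 15 were higher and 0 lower at an unadjusted p under 0.05, against 10.1% and 7.87% of all genes (median 0.27). Dlat, the acetyltransferase of pyruvate dehydrogenase, stood at 170 to 211 CPM in IR (median 195) and 211 to 339 CPM in IR+Decursin (median 259), with 5 of 6 above (0.49 ± 0.11, adjusted p = 0.0883). Dlst of the oxoglutarate dehydrogenase complex differed by 0.48 ± 0.11 (adjusted p = 0.0930). The list held 1 gene with a large negative value, Pdk4, the kinase that shuts pyruvate dehydrogenase off (-0.73 ± 0.46, adjusted p = 0.406).

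Of 33 genes of fatty acid uptake and oxidation 5 were higher and 3 lower at an unadjusted p under 0.05, against 10.1% and 7.87% of all genes, and the median was 0.06, or -0.03 under total-count scaling and 0.01 without the Xist libraries. Acsl1, which activates fatty acids in heart muscle, was 0.37 ± 0.12 higher. Hilpda, a lipid droplet protein that inhibits fat breakdown, stood at 3.96 to 8.12 CPM in IR (median 6.06) and 2.84 to 4.24 CPM in IR+Decursin (median 3.74), with 5 of 6 treated libraries below all of IR (-0.74 ± 0.16, adjusted p = 0.0883), and the lipoprotein lipase inhibitor gene Angptl4 was -1.60 ± 0.56. Of 22 genes of glycolysis and glucose uptake 8 were higher and 4 lower (median 0.16, 0.07 with total-count scaling). The muscle isoform genes Eno3 (0.66 ± 0.16, adjusted p = 0.0930) and Pgam2 (0.60 ± 0.15, adjusted p = 0.0941) and the insulin-regulated transporter gene Slc2a4 (0.50 ± 0.15) stood higher, and the ubiquitous isoform gene Eno1 was -0.23 and the lactate exporter gene Slc16a3 -0.88.

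**Figure D2:**
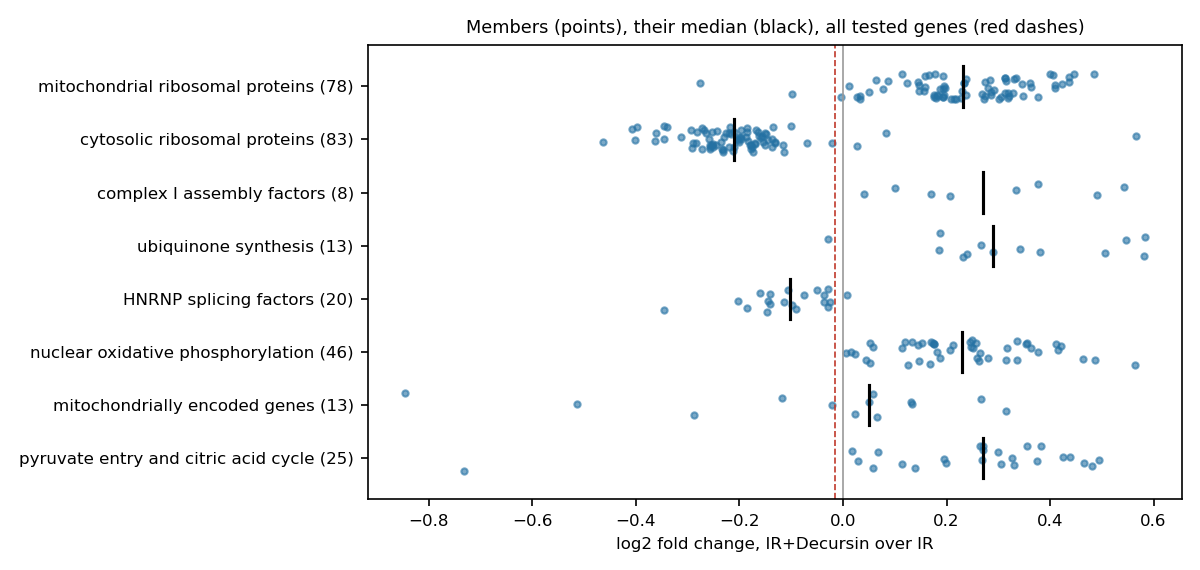
Log2 fold change of IR+Decursin over IR (horizontal axis) for each tested member of 8 gene families or lists (points, vertical scatter only separates them), with the number tested in parentheses, the median as a black bar and the median of all genes, -0.02, as a red dashed line. The medians are 0.23 for mitochondrial and -0.21 for cytosolic ribosomal proteins, and 0.23 for nuclear and 0.05 for mitochondrially encoded respiratory genes.

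Heart muscle genes stood higher with decursin while a marker of the stressed ventricle stood lower. Of 22 contraction genes 11 were higher and 1 lower at an unadjusted p under 0.05 (median 0.30, 0.23 without the Xist libraries). This count and that of the calcium list below stand against 10.1% higher and 7.87% lower among all genes. Actc1, cardiac actin, stood at 5255 to 8716 CPM in IR (median 7374) and 6855 to 14280 CPM in IR+Decursin (median 11158), with 5 of 6 above (0.63 ± 0.16, adjusted p = 0.0958). Ckm, muscle creatine kinase, differed by 0.62 ± 0.19 (adjusted p = 0.136) and Myh6 by 0.40 ± 0.15 (adjusted p = 0.191), while the M-band gene Myom2 was the lower one at -0.40. Of 25 calcium handling and ion channel genes 12 were higher and 0 lower (median 0.23). They include the calcium store gene Casq2 (0.38 ± 0.11, adjusted p = 0.134) and the sarcoplasmic calcium pump gene Atp2a2 (0.29 ± 0.13, adjusted p = 0.247).

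Myh7 encodes the slow myosin of the fetal and stressed ventricle and had the largest difference among the genes of heart muscle that were named. It stood at 309 to 3575 CPM in IR (median 1208), 152 to 841 CPM in IR+Decursin (median 288) and 83.6 to 162 CPM in SHAM. The IR libraries spread widely, IR 3 and IR 6 lay inside the treated range, and 3 of 6 treated libraries lay below all IR libraries (-2.09 ± 0.52, adjusted p = 0.0981). The difference was -1.66 without IR 5 and -2.47 without the Xist libraries. The other 18 tested genes of the stress list did not move as one. The list had 2 higher and 4 lower genes at an unadjusted p under 0.05, against 10.1% and 7.87% of all genes. Its median was -0.24, which was -0.08 without the Xist libraries. The natriuretic peptide genes Nppa (-0.33 ± 0.51) and Nppb (-0.09 ± 0.33) changed sign when single libraries were left out. Gdf15, a stress cytokine, was -0.77 ± 0.27, or -0.48 without IR 6, and skeletal actin Acta1, also counted in the skeletal muscle list, was 1.26 ± 0.45.

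The 10 lower genes with the smallest p included endosome, ribosome and lipid genes. Of these, 9 passed with DESeq2, 10 without IR+Decursin 1 and 0 in each of the other fits tried, and they too were picked by p in the same libraries. Cd63, a tetraspanin of late endosomes and exosomes, stood at 173 to 264 CPM in IR (median 184), 104 to 171 CPM in IR+Decursin (median 143) and 86.5 to 99.9 CPM in SHAM, with no overlap between IR and IR+Decursin (-0.50 ± 0.12, adjusted p = 0.0930). The lysosomal calcium channel gene Tpcn2 stood at 5.56 to 9.71 CPM and 3.42 to 6.63 CPM (-0.73 ± 0.17, adjusted p = 0.0883), with IR+Decursin 1 alone inside the IR range. Pgap6, a lipase that trims lipid-anchored proteins, was -0.49 ± 0.12 and the centrosomal gene Ccdc163 -0.67 ± 0.16, both without overlap. Itgax, the integrin CD11c of dendritic cells and macrophages, stood at 3.54 to 7.42 CPM and 0.778 to 3.89 CPM (-1.08 ± 0.27, adjusted p = 0.0930).

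The remaining 3 are genes of RNA and ribosomes. Hnrnpa1, a splicing factor, stood at 172 to 226 CPM in IR (median 211) and 144 to 172 CPM in IR+Decursin (median 165), with 5 of 6 treated libraries below all of IR (-0.35 ± 0.08, adjusted p = 0.0883). Rps16 (-0.41 ± 0.10) and Rps28 (-0.40 ± 0.10) belong to the small subunit of the cytosolic ribosome. Of 83 cytosolic ribosomal protein genes, again grouped by symbol after these values were seen, 80 lay below 0 and 54 of those were lower at an unadjusted p under 0.05, against 7.87% of all genes. Their median was -0.21, or -0.18 without the Xist libraries and -0.30 with total-count scaling. In 7 of the 83 genes, Rps16, Rpl3, Rps23, Rpl13a, Rpl5, Rps6 and Rpl4, every treated library lay below every IR library. Among all tested genes 0.245% did so.

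The 3 genes of this family above 0 were Rps2 (0.03 ± 0.09), Rpl7l1 (0.08 ± 0.06) and Rpl3l, the striated muscle counterpart of Rpl3. Rpl3l stood at 74.3 to 116 CPM in IR and 97.3 to 181 CPM in IR+Decursin (0.57 ± 0.14, adjusted p = 0.0958), whereas Rpl3 stood at 352 to 469 CPM and 226 to 346 CPM (-0.35 ± 0.11, adjusted p = 0.135). Ribosomal protein genes have many processed copies in the genome, and how reads shared among copies were counted is not given, so single values of this family are uncertain. Ncl, nucleolin of the nucleolus, where ribosomes are assembled, also lay wholly lower, at 242 to 266 CPM in IR and 204 to 223 CPM in IR+Decursin (-0.26 ± 0.07, adjusted p = 0.0981). Of 20 HNRNP genes 19 lay below 0, 3 of them at an unadjusted p under 0.05, against 7.87% of all genes. Their median was -0.10 against -0.02 for all genes, and -0.19 against -0.10 with total-count scaling.

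Matrix genes differed mainly through 2 treated libraries. Of 29 collagen and crosslinking genes 0 had an unadjusted p under 0.05, against 10.1% higher and 7.87% lower among all genes. Of the 29, however, 28 lay below 0 (median -0.36, -0.23 without the Xist libraries). Col1a1, the main scar collagen, stood at 1965 to 2800 CPM in IR (median 2077), and at 118 to 2770 CPM in IR+Decursin (median 1893). IR+Decursin 5 and 6 held 280 and 118 CPM, next to 80.4 to 128 CPM in SHAM, IR+Decursin 2 also lay below every IR library, and IR+Decursin 1, 3 and 4 lay within the IR range (-0.47 ± 0.52, adjusted p = 0.654). Col3a1 and the activated fibroblast gene Postn had the same 2 libraries lowest (-0.47 ± 0.47 and -0.53 ± 0.57). Without IR+Decursin 6 the differences of Col1a1 and Col3a1 were both -0.23, and that of Postn was -0.22 without IR 3. The level of the collagen list, the mean log2(CPM + 1) of its members, was 4.88 in IR+Decursin 6, 5.56 in IR+Decursin 5 and 6.27 to 7.17 in the other treated libraries, against 6.35 to 7.26 in IR.

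Of 26 matrix protease and inhibitor genes 21 lay below 0, with 2 higher and 2 lower at an unadjusted p under 0.05 against 10.1% and 7.87% of all genes (median -0.33, -0.25 without the Xist libraries). Of 27 matricellular genes 24 lay below 0, with 2 higher and 0 lower (median -0.24, -0.14 without the Xist libraries). Single genes differed from these medians. Timp3, an inhibitor of matrix proteases held in the matrix, stood at 227 to 375 CPM in IR (median 275) and 300 to 528 CPM in IR+Decursin (median 421), with 5 of 6 above (0.56 ± 0.13, adjusted p = 0.0883). Timp4, abundant in the heart, was 1.05 ± 0.36 and the injury-induced Timp1 -1.01 ± 0.47. Chad, chondroadherin, stood at 0.406 to 4.91 CPM in IR and 2.70 to 12.7 CPM in IR+Decursin (2.05 ± 0.53, adjusted p = 0.105), and Fmod, fibromodulin, was 0.83 ± 0.28. Of 16 resident fibroblast markers 1 was higher (Gsn, 0.42 ± 0.16, or 0.27 without the Xist libraries) and 1 lower (Pdgfra, -0.25 ± 0.11), with a median of 0.00. In the TGF-beta and BMP list 1 of 27 genes was higher and 3 lower, among them the induced adhesion protein gene Tgfbi (-0.61 ± 0.22).

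Genes of recruited macrophages and of inflammation stood mostly lower with decursin. In the levels of the recruited macrophage, chemokine, interleukin, complement and inflammasome lists, IR+Decursin 2, 5 and 6 lay below every IR library. IR+Decursin 1, 3 and 4 lay within the IR range of each. In tissue RNA, fewer cells of a type and less RNA per cell cannot be told apart. All 24 markers of recruited macrophages and monocytes lay below 0, 13 of them at an unadjusted p under 0.05 against 7.87% of all genes, with a median of -0.75 that was -0.45 without the Xist libraries and -0.95 without IR+Decursin 1. Their level was 5.10 to 6.51 in IR and 5.87, 4.81, 5.36, 5.36, 4.47 and 3.49 in IR+Decursin 1 to 6, against 2.97 to 3.36 in SHAM. No marker of the list was at 0 in any group. Cd68, a lysosomal macrophage protein, stood at 49.0 to 122 CPM in IR and 15.1 to 82.2 CPM in IR+Decursin (-0.72 ± 0.31, adjusted p = 0.242), and Adgre1, the F4/80 antigen, was -0.76 ± 0.27, or -0.47 without the Xist libraries. Arg1, made by repair macrophages, had a difference of -2.01 ± 0.82.

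Of 14 resident macrophage markers 0 were higher and 1 lower at an unadjusted p under 0.05, against 10.1% and 7.87% of all genes. The lower marker was Pf4, which platelets also make (-0.67 ± 0.26, or -0.42 without IR 6). The median was -0.03, or -0.13 without the Xist libraries. Lyve1, which marks macrophages lodged along vessels and also lymphatic endothelium, was 0.36 ± 0.20, or 0.18 without the Xist libraries. The difference between the 2 macrophage lists was not tested. Of the markers of neutrophils 10 of 16 passed the count filter, of T and NK cells 10 of 19 and of B and plasma cells 9. Low-count members could pass through the IR group alone, so no count over those that passed is given. Jchain, of plasma cells, rested on 1 library and was -3.02 ± 1.17, and -0.65 without IR 2. Medians of these lists carry the same limit. Without the Xist libraries the median of the T and NK genes was -0.31 in place of -0.65. That of dendritic cell and MHC class II genes was -0.30 in place of -0.68.

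The cells that gave the following signalling genes cannot be told from tissue RNA. Of 29 listed chemokine genes 28 passed the count filter, and of 30 interleukin and TNF genes 27. All 20 genes of the complement list and of the inflammasome list passed. Low-count members could pass through the IR group alone, which by itself favours values below 0. Of 28 chemokine genes 7 were lower and 0 higher at an unadjusted p under 0.05 (median -0.72), and this count and the 3 after it stand against 7.87% lower and 10.1% higher among all genes. First by p was the neutrophil attractant Cxcl2, at 0.293 to 9.57 CPM in IR and 0.0309 to 0.710 CPM in IR+Decursin (-2.78 ± 0.77, adjusted p = 0.119, and -1.58 without IR 2). Of 27 interleukin and TNF genes 8 were lower and 0 higher (median -0.44). Tnf stood at 0.384 to 1.82 CPM in IR and 0.272 to 0.841 CPM in IR+Decursin (-1.39 ± 0.38, adjusted p = 0.111), and Il1b was -1.61 ± 0.68. Of 20 complement genes 5 were lower (median -0.37), among them the receptor gene C3ar1 (-0.88 ± 0.32). Of 20 inflammasome and necroptosis genes 10 were lower (median -0.50), with the pore-forming Gsdmd at 15.1 to 26.4 CPM in IR and 8.86 to 16.5 CPM in IR+Decursin (-0.50 ± 0.16, or -0.31 without the Xist libraries) and Nlrp3 at -1.10 ± 0.43. The survival gene Bcl2a1d (-1.51 ± 0.34, adjusted p = 0.0883) and the cytokine receptor gene Csf2rb2 (-1.13 ± 0.41) lay wholly below IR. Bcl2a1d rests on few counts, at 0.870 to 2.00 CPM in IR and 0.309 to 0.791 CPM in IR+Decursin.

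Of 23 interferon response genes 20 lay below 0. At an unadjusted p under 0.05, 1 was lower and 0 higher, against 7.87% and 10.1% of all genes. The median was -0.23, or 0.09 without the Xist libraries and -0.33 without IR+Decursin 1, and how it differs from the other lists was not tested. Gbp2, a guanylate-binding protein induced by interferon-gamma, was -0.57 ± 0.31. It stood at 137 CPM in IR 4 and at 26.8 to 55.2 CPM in the other IR libraries, and the difference was -0.07 without IR 4.

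**Figure D3:**
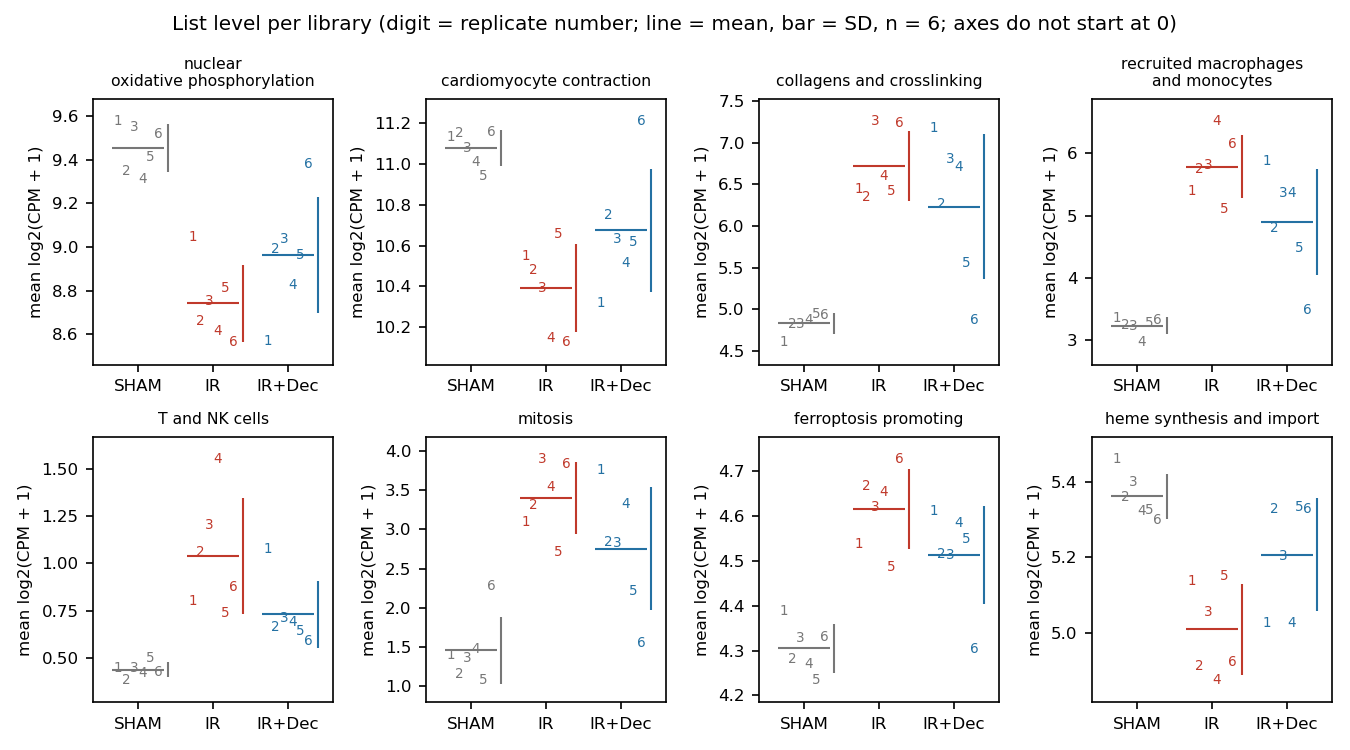
Level of 8 gene lists, the mean log2(CPM + 1) of their tested members (vertical axes, which do not start at 0), in each library of SHAM, IR and IR+Dec (IR+Decursin). Digits are replicate numbers, horizontal lines means and vertical bars SD (n = 6). IR+Decursin 6 holds the lowest treated level of collagen (4.88) and recruited macrophage genes (3.49), and IR+Decursin 1 lies among the IR libraries.

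The treated libraries varied together across these lists. IR+Decursin 6 had the highest level of nuclear oxidative phosphorylation genes (9.38, against 8.57 to 9.04 in the other treated libraries and 8.56 to 9.05 in IR) and of contraction genes (11.2), and the lowest of recruited macrophage and mitosis genes (3.49 and 1.56). IR+Decursin 1 stood at the other end of the treated group, with 8.57, 10.3, 5.87 and 3.76 for the same 4 lists. The median SD of log2 levels over 12059 genes was 0.197 in IR+Decursin, 0.176 in IR and 0.152 in SHAM. How far a shift in cell make-up from muscle to leukocytes and fibroblasts accounts for the mitochondrial values was not tested.

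Proliferation genes followed this spread. Of 25 mitosis genes 1 was lower at an unadjusted p under 0.05 and 0 higher. Counts in this paragraph stand against 7.87% lower and 10.1% higher among all genes. The lower gene was Aurka, a spindle kinase (-0.70 ± 0.33, or -0.45 without the Xist libraries). The list median was -0.60, or -0.40 without those libraries. Mki67, a marker of dividing cells, stood at 23.6 to 66.0 CPM in IR and 7.86 to 60.4 CPM in IR+Decursin (-0.55 ± 0.45), where IR+Decursin 1 was the highest and IR+Decursin 6 the lowest, and without IR+Decursin 6 the difference was -0.36. Of 22 DNA replication genes 4 were lower, including the ribonucleotide reductase gene Rrm1 (-0.43 ± 0.16), and 1 higher, which was Ung.

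Genes of heme synthesis stood higher and the heme-degrading Hmox1 lower. Of 18 heme synthesis and import genes 9 were higher and 0 lower at an unadjusted p under 0.05, against 10.1% and 7.87% of all genes, and the median was 0.21 (0.16 without the Xist libraries, 0.12 with total-count scaling). Alas1, the first and rate-limiting step outside red cells, stood at 55.3 to 123 CPM in IR (median 86.8), 101 to 212 CPM in IR+Decursin (median 151) and 140 to 241 CPM in SHAM, with 5 of 6 treated libraries above all of IR (0.76 ± 0.20, adjusted p = 0.0981). Alad, the enzyme of the following step, stood at 16.9 to 22.0 CPM in IR and 18.5 to 34.4 CPM in IR+Decursin (0.48 ± 0.14, adjusted p = 0.129). The mitochondrial transporter genes Abcb10 (0.43 ± 0.11, adjusted p = 0.0930) and Abcb6 (0.40 ± 0.11) belonged to the 9, whereas Alas2, the red cell isoform of the first step, was -0.26 with 0 of the 9 red cell genes at an unadjusted p under 0.05.

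Hmox1, heme oxygenase, which frees iron from heme, stood at 51.3 to 264 CPM in IR (median 86.2), 10.8 to 100 CPM in IR+Decursin (median 45.1) and 8.94 to 14.5 CPM in SHAM. IR 6 was far above the other IR libraries and IR+Decursin 1 was the highest treated one (-1.24 ± 0.46, adjusted p = 0.191). The difference was -0.77 without IR 6 and -1.61 without IR+Decursin 1. The latter edgeR fit gave an adjusted p of 0.0477, the only pass in 18 fits that each left out 1 library. That fit dropped the highest treated library, so its pass is no separate support. Bach1, the gene of the Hmox1 repressor, was -0.30 ± 0.11. Macrophages express Hmox1 strongly, and the recruited macrophage level ran from 5.10 to 6.51 in IR and 3.49 to 5.87 in IR+Decursin, whose part in the Hmox1 value was not tested. The rest of the 14 genes of heme scavenging, export and breakdown held 1 more lower gene (Lrp1) and 0 higher at an unadjusted p under 0.05. Among all genes the shares were 7.87% lower and 10.1% higher. The list median was -0.05, or -0.09 without the Xist libraries.

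**Figure D4:**
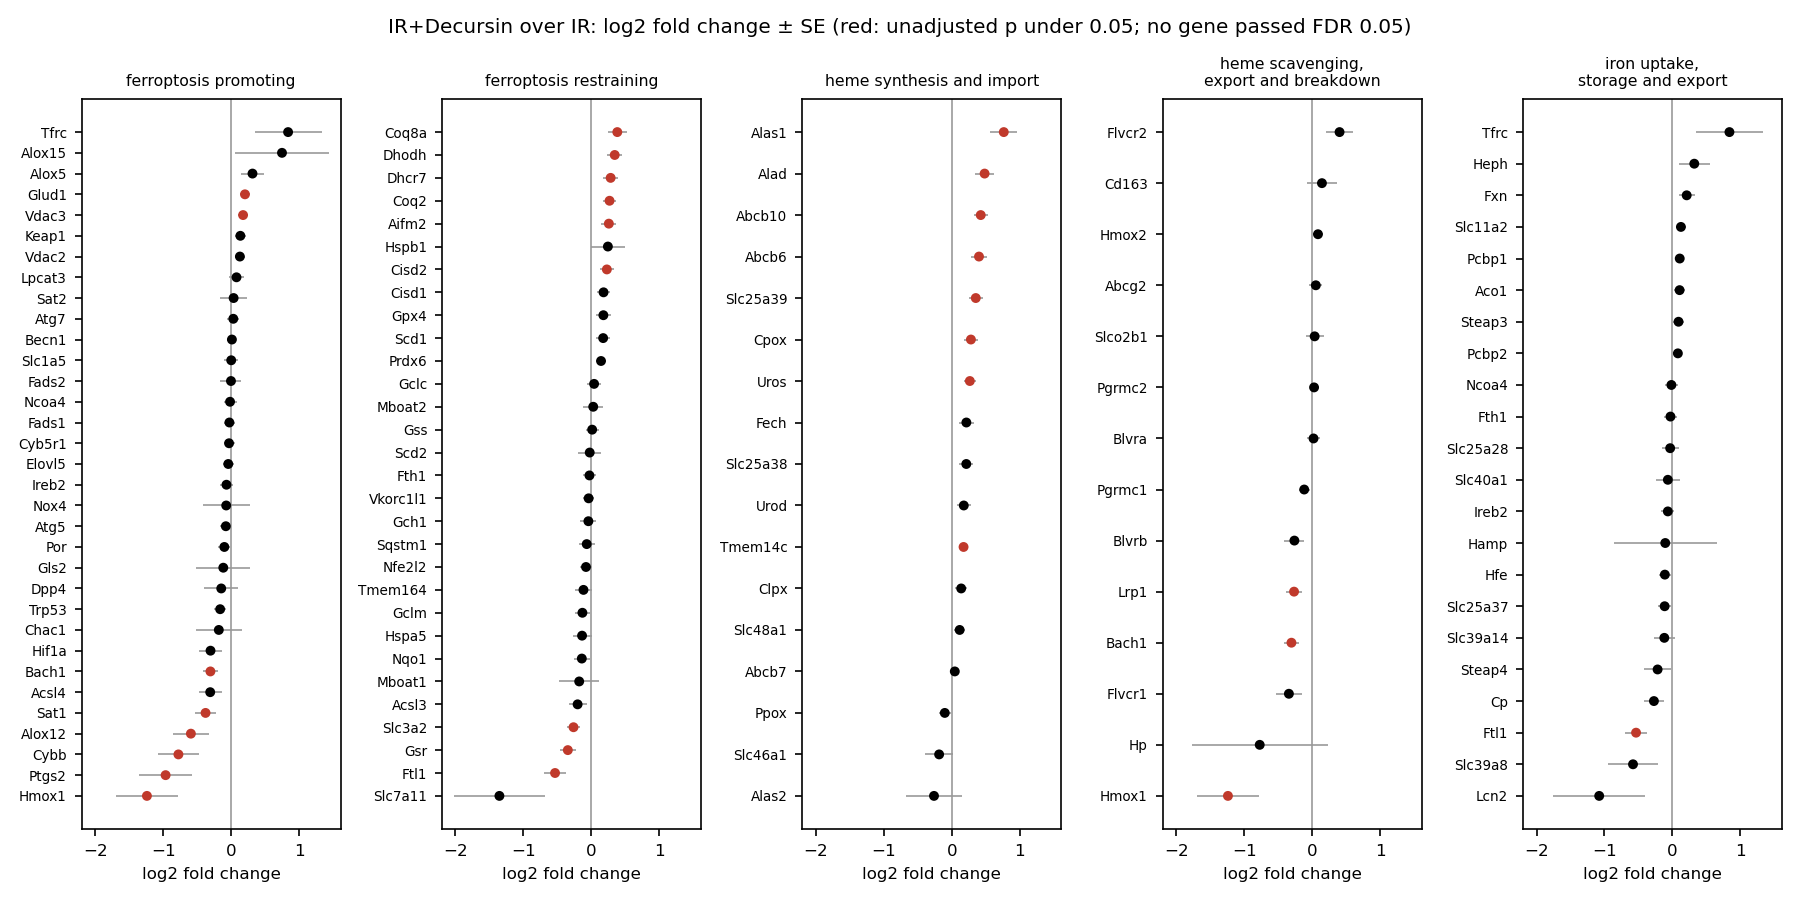
Log2 fold change of IR+Decursin over IR ± SE (horizontal axes) for the genes of 5 lists on ferroptosis, heme and iron. Red points have an unadjusted p under 0.05 and none passed the adjusted threshold. Alas1 is the highest of the heme synthesis genes (0.76) and Hmox1 the lowest in both lists that hold it (-1.24).

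Ferroptosis genes did not move in 1 direction by role. Roles are as given in the lists, and the place of Dhcr7 (0.28 ± 0.11) and Tmem164 among the restraining genes is uncertain. Of 33 genes listed as promoting 2 were higher and 6 lower at an unadjusted p under 0.05 (median -0.04). Of 30 listed as restraining 6 were higher and 3 lower (median -0.03, or -0.11 with total-count scaling). Among all genes 10.1% were higher and 7.87% lower. Without the Xist libraries the medians were -0.00 and -0.01. The 6 lower promoting genes were Hmox1, Ptgs2, Cybb, Alox12, Sat1 and Bach1. Ptgs2, cyclooxygenase, which is also induced in inflammation, stood at 2.55 to 13.9 CPM in IR and 1.82 to 7.10 CPM in IR+Decursin (-0.96 ± 0.38, adjusted p = 0.210, and -0.54 without IR 6). Acsl4, which builds oxidisable phospholipids, was -0.31 ± 0.17, or -0.17 without IR 6. The transferrin receptor gene Tfrc was 0.84 ± 0.49, or 1.26 without IR 3.

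Among the restraining genes Gpx4, the peroxidase that reduces lipid peroxides, stood at 350 to 511 CPM in IR (median 393) and 345 to 559 CPM in IR+Decursin (median 478), overlapping nearly throughout (0.18 ± 0.11, adjusted p = 0.405). Slc7a11, the cystine importer, was at most 2.19 CPM in any IR library (-1.35 ± 0.67, adjusted p = 0.293). The ubiquinone-linked genes Aifm2 (0.26 ± 0.11, or 0.15 without IR+Decursin 5), Dhodh (0.34 ± 0.11), Coq2 (0.27 ± 0.09) and Coq8a (0.38 ± 0.14) made up 4 of the 6 higher ones. Ferritin light chain Ftl1 stood at 584 to 1053 CPM in IR and 330 to 714 CPM in IR+Decursin, with 4 of 6 below all of IR (-0.54 ± 0.16, adjusted p = 0.129). The heavy chain Fth1 was -0.03 ± 0.09, the iron exporter Slc40a1 -0.07 ± 0.18 and the ferritin receptor Ncoa4 -0.02 ± 0.09, all of whose signs changed when single libraries were left out. Ftl1 was the 1 gene of 22 iron genes at an unadjusted p under 0.05, against 10.1% higher and 7.87% lower among all genes.

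Values of other stress systems differed in direction by list. Counts in this paragraph and the next are at an unadjusted p under 0.05, against 10.1% higher and 7.87% lower among all genes. Of 29 antioxidant genes 2 were higher and 6 lower (median -0.08), including thioredoxin Txn1 (-0.38 ± 0.10, adjusted p = 0.107) and the glutathione peroxidase gene Gpx1 (-0.43 ± 0.13, adjusted p = 0.128), while Nfe2l2, the NRF2 gene, was -0.08 ± 0.09, or -0.03 without IR+Decursin 6, and its target Nqo1 -0.14 ± 0.12, or -0.07 without IR 1. Of 21 endoplasmic reticulum stress genes 2 were lower (Pdia6, -0.43 ± 0.17, and Hsp90b1, -0.35 ± 0.15). Of 20 heat shock chaperone genes 5 were higher and 0 lower, led by the HSP90 co-chaperone gene Fkbp4, at 179 to 227 CPM in IR and 202 to 358 CPM in IR+Decursin (0.50 ± 0.11, adjusted p = 0.0883). Of 25 lysosome and autophagy genes 10 were lower and 2 higher (median -0.18), with the cholesterol carrier gene Npc2 at -0.47 ± 0.14, or -0.30 without the Xist libraries, and the protease gene Ctsz at -0.55 ± 0.17. The lysosome genes include several that macrophages express strongly, and the part of those cells was not tested.

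Clock, vessel and drug response genes complete the lists. Of 21 clock genes 5 were higher (median 0.20, 0.13 without the Xist libraries), and the output gene Usp2 stood at 54.2 to 70.9 CPM in IR and 58.6 to 128 CPM in IR+Decursin with 5 of 6 above (0.57 ± 0.15, adjusted p = 0.0981). The labels state no hour of collection. The endothelial list held 3 higher genes of 20, near the 10.1% of all genes (median 0.09, -0.00 with total-count scaling). First by p was the water channel gene Aqp1 (0.79 ± 0.24, adjusted p = 0.132), in which IR+Decursin 1 lay below all of IR and the other treated libraries above. Pecam1, carried by all endothelium, was 0.05 ± 0.09. Of 15 smooth muscle and pericyte genes 5 were higher (median 0.23), and of 21 angiogenesis and hypoxia genes 2 were higher, among them Vegfb (0.51 ± 0.13, adjusted p = 0.0930), and 2 lower. Cyp1a1, the classic target of the aryl hydrocarbon receptor, stood at 0.270 to 1.85 CPM in IR and 0.210 to 4.15 CPM in IR+Decursin with 5 of 6 treated libraries above all of IR and 1 below (adjusted p = 0.191), while Cyp1b1, a target of the same receptor, was -0.98.

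**Figure D5:**
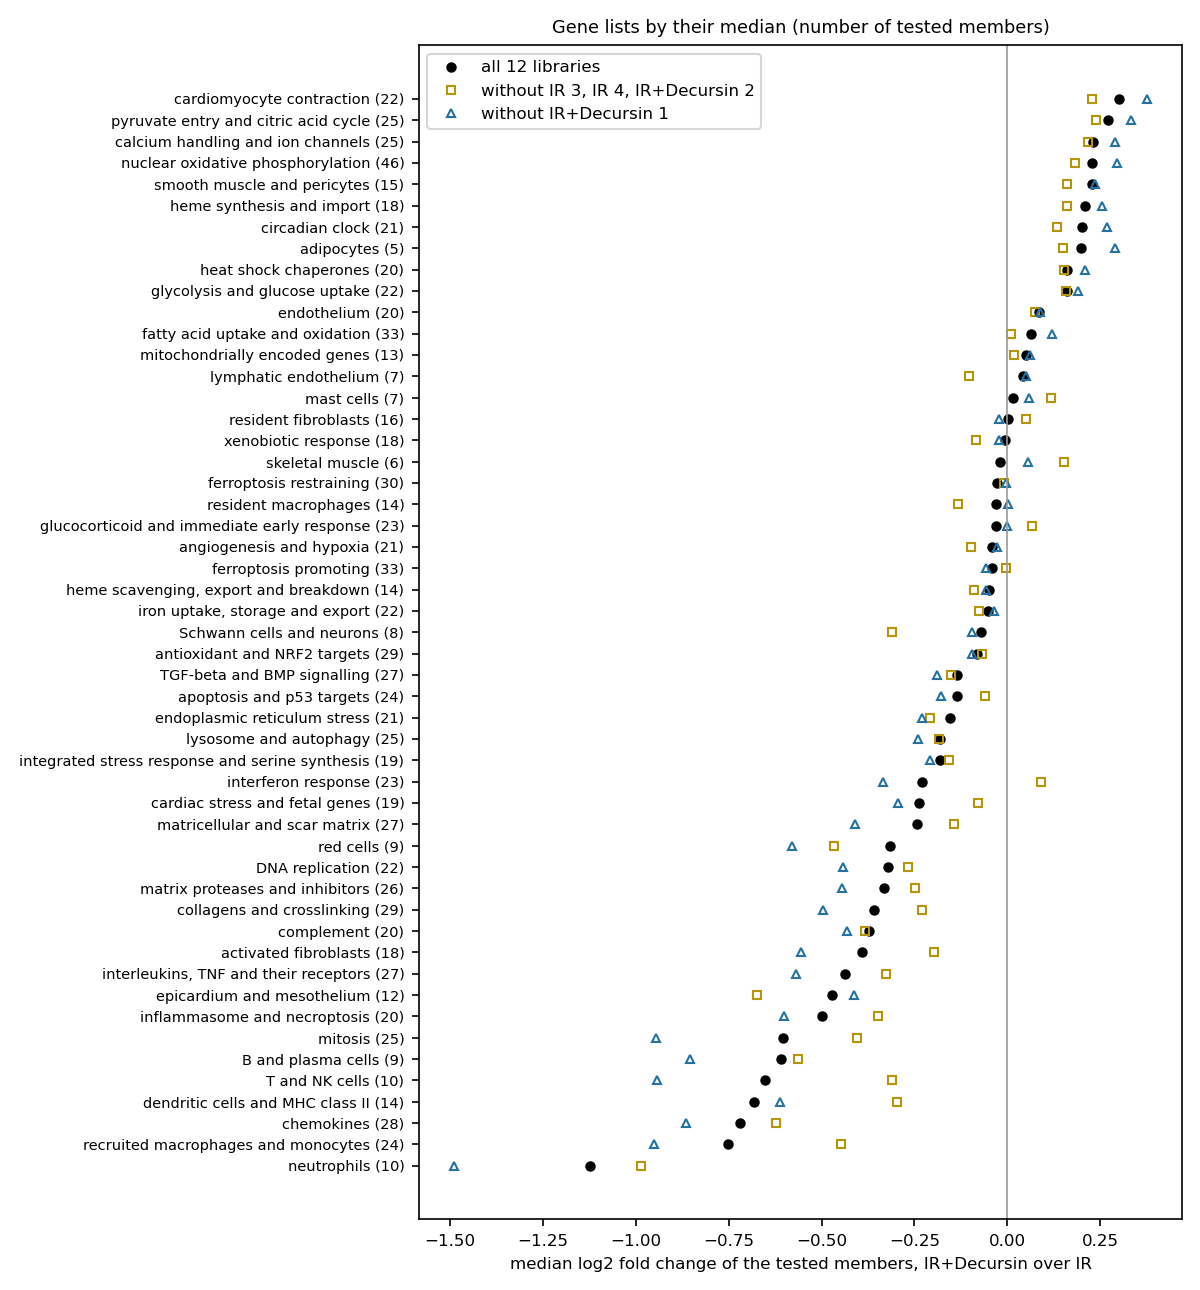
Median log2 fold change of IR+Decursin over IR (horizontal axis) for 51 gene lists, with the number of tested members in parentheses. Black circles use all 12 libraries, squares leave out IR 3, IR 4 and IR+Decursin 2, and triangles leave out IR+Decursin 1. Contraction genes have the highest median (0.30), and the interferon response median passes 0 without the 3 libraries (0.09). The neutrophil median is the lowest (-1.12), but it covers only the 10 of 16 members that passed the filter. Low-count members could pass through the IR group alone, which by itself favours values below 0 in such lists.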

How the data were processed

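Total RNA of 18 hearts was sequenced. Counts per gene symbol were deposited by the authors. The submitters' processing notes name fastp, HISAT2, HTSeq and the build GRCm39, and tool versions, annotation and strand setting were not stated there. The deposited FPKM values served only for alternatives.

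The test was the quasi-likelihood one of edgeR 4.0.16 (R 4.3.3) on 18 libraries, with TMM factors, the filterByExpr filter, 1 mean for each of 3 groups and 15 residual degrees of freedom. The contrast was two-sided with Benjamini-Hochberg adjustment over 15088 genes, called at 0.05. The fit was tested on simulated data. Libraries held 27525876 to 34974692 counts. Each library is 1 animal. Alternatives used DESeq2 1.42.0, limma 3.58.1 (voom, and log2(FPKM + 1) or log2(FPKM + 0.1)), other scalings and filters, a replicate block, and left-out libraries.

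The comparison, the 52 lists, the 32-gene panel and the families were chosen with earlier results of these data known. Named are the 10 genes per direction with the smallest p and a mean of at least 2 CPM, without gene models, the panel, and the 2 members of each list with the smallest p. Any other gene was named after its values were seen. Sequences are from RefSeq (GRCm38.p6) and served for no count. A few single genes that these rules name are not reported here; the counts and medians include them.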

Additional observations from a re-analysis of the deposited data

Results flagged for a closer look

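Single libraries stood far from the other 5 of their group in the values below, by a test of the gap to the nearest library over the whole range of the group. Chance flags about 1 in 20 groups of values. Many groups were looked at, so some of these flags can arise by chance, and they are given as values only. Among IR libraries, IR 6 held 26.9 CPM of Noct, against 19.3 to 20.3 in the others, and 620 CPM of the chaperone gene Hsp90b1, against 426 to 464. IR 6 also had the highest level of the endoplasmic reticulum stress list (6.66, against 6.17 to 6.28). IR 3 held 2800 CPM of Col1a1, against 1965 to 2176, and its level of antioxidant genes was 5.87, against 6.05 to 6.16. IR 3 is also 1 of the libraries with Xist.

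Among treated libraries, IR+Decursin 6 was lowest for Itgax (0.778 CPM, against 2.36 to 3.89), for the retinoic acid synthesis gene Aldh1a2 (6.11 CPM, against 22.3 to 28.5), for the resident fibroblast list (6.48, against 6.68 to 6.80) and for the ferroptosis promoting list (4.30, against 4.51 to 4.61). IR+Decursin 4 was lowest for Pdss1 (10.8 CPM, against up to 16.3) and highest for the xenobiotic response list (3.86, against 3.61 to 3.69). IR+Decursin 5 was lowest for H2-DMb1, which helps to load MHC class II (3.95 CPM, against 5.53 to 6.71). IR+Decursin 1 had the highest level of T and NK cell genes (1.08, against 0.593 to 0.713). The share of counts in the gene model Gm26917 was 7.54% in IR+Decursin 6, against 0.0608 to 0.166%, and 0.915% in IR 1, against 0.0571 to 0.135%.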

How the results depend on the processing

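The count of 0 called genes became 470 with DESeq2 and 1 without the Xist libraries and IR+Decursin 1 together. Leaving out each library in turn gave 0 to 976, with 976 without IR+Decursin 1, 2 without IR+Decursin 4 and 0 otherwise. All other scalings, filters and fits tried gave 0. The cause was not tested. Replicate numbers did not pair the libraries (same-number correlations -0.563 to 0.441, 2 of 6 over 0.1, 1 of 6 best with its own number), and the replicate block also gave 0 calls. Counts at an unadjusted p under 0.05 ran from 1803 without IR+Decursin 6 to 4059 without IR+Decursin 1, and were 1293 without the Xist libraries.

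The mitochondrial share difference ran from -0.664 to 0.977 percentage points over left-out libraries and was -0.435 without the Xist libraries. Signs turned for Fth1 (-0.073 to 0.015 over left-out libraries), Slc40a1 (-0.18 to 0.093, and 0.039 with voom), Ncoa4 (-0.057 to 0.029), Nppa (-0.88 to 0.038), Nppb (-0.33 to 0.15, and 0.16 with voom), Pecam1 (-0.036 with total-count scaling, -0.036 with both log2(FPKM + 1) fits and -0.037 with log2(FPKM + 0.1)) and Gbp2 (0.11 without the Xist libraries, 0.067 also without IR+Decursin 1). List medians moved by over the SD between libraries for glycolysis (0.07) and ferroptosis restraining genes (-0.11) with total-count scaling and for T and NK cells (-0.31) and Schwann cells and neurons (-0.31) without the Xist libraries. Within that SD, medians without the Xist libraries went from -0.23 to 0.09 for interferon, -0.68 to -0.30 for dendritic cell and -0.75 to -0.45 for recruited macrophage genes, and total-count scaling gave -0.03 for fatty acid and -0.06 for mitochondrially encoded genes. Of genes at an unadjusted p under 0.05, 56.2% were higher in the full fit, 48.9% with upper-quartile factors, 30.9% with total counts and 25.4% on log2(FPKM + 1). Genes near 1 CPM rest on few counts, and 6 libraries a side limit what can pass.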

Other observations

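Further genes whose groups did not overlap are given as values, chosen after they were seen. Higher with decursin were the phosphatase gene Dusp7, which restrains ERK (33.8 to 40.0 CPM in IR and 41.6 to 51.9 CPM in IR+Decursin, 0.33 ± 0.07), the sodium pump subunit gene Atp1b1 (0.40 ± 0.10), the muscle gene Klhl31 (0.42 ± 0.10), the ornithine carrier gene Slc25a15 (0.36 ± 0.09), the ATP synthase assembly gene Tmem70 (0.29 ± 0.08) and the import receptor gene Tomm22 (0.25 ± 0.07). Lower were the kinase gene Grk5, which desensitises adrenergic receptors (51.0 to 69.7 CPM in IR and 39.1 to 50.9 CPM in IR+Decursin, -0.43 ± 0.14), the protease inhibitor gene Cst3 (-0.30 ± 0.09), the immediate early gene Junb (-0.60 ± 0.23), the polymerase subunit gene Pold4 (-0.57 ± 0.18) and the splicing genes Prpf31 (-0.23 ± 0.08) and Snrnp40 (-0.23 ± 0.07). None passed the edgeR test in the full fit.

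The extended half-site of the estrogen-related receptors, TCAAGGTCA on either strand, was in 0.423% of all promoter windows, 0.272% of those of tested genes and 0 of the 75 windows of mitochondrial ribosomal protein genes. It was in 0.252% of the windows of genes higher at an unadjusted p under 0.05 and 0.414% of those lower.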
